A study of Arabidopsis thaliana with 8 samples.

Results

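The genes described here are those that the mitochondrial genome of Arabidopsis thaliana encodes, as they appear in poly(A)-selected RNA libraries of root tips. Every row of the normalised expression table whose identifier begins with ATMG was taken, which gave 77 genes of 23632. The libraries came from Col-0 seedlings that had spent 5 days on agar at 22 °C and were then either left there for another 48 h (control, 22 °C) or moved to 30 °C for as long (high temperature). Each of the 4 libraries per temperature was made from 1-mm root tips pooled from 50 seedlings of 5 plates, so that all cell types of the tip were mixed. No transgene or mutation was involved. The p-values measure the spread between these pools. In such bulk samples, fewer cells of a type and less RNA per cell cannot be told apart.

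Plant mitochondria keep a small genome for core subunits of the respiratory complexes, ATP synthase, the cytochrome c maturation machinery and the mitochondrial ribosome, together with ribosomal RNAs, tRNAs and many open reading frames without known function. The nucleus encodes the remaining subunits and the polymerases, splicing factors and nucleases that act on these transcripts. Unlike nuclear mRNAs, mitochondrial transcripts of plants are not stably polyadenylated. A poly(A) tail is added to molecules that are about to be degraded, so an oligo(dT) library holds a small and selected portion of the mitochondrial RNA and does not measure its total amount.

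Names were given only where the reference annotation (RefSeq, TAIR10.1) allowed it. RefSeq notes on nuclear genes paired 10 of the 77 identifiers with a gene, and 19 more had exactly the length of the gene that a role list written from general knowledge gave them. A further 13 had the length of 1 annotated open reading frame, and 35 stayed without a name. Among these is ATMG00020, which the role list gives as rrn26, the RNA of the large mitochondrial ribosomal subunit. No annotated gene of the reference has its length, so whether it is an rRNA was not settled here. The same holds for ATMG01170 (atp6 in the role list), ATMG01120 and ATMG00285 (parts of nad1 and nad2), ATMG00520 (matR) and ATMG00570 (mttB). These rows are left out of the counts by role below. Of 5 notes that could be compared with a length match, 4 named the same gene, so names from length alone, above all those of the open reading frames, are less certain than the identifiers. The mitochondrial chromosome of TAIR10.1 differs from that of TAIR10, the build of the files, and no mitochondrial sequence is shown for that reason. In TAIR10.1 coordinates, cox2 lies at 6264 to 8389 on the plus strand in 2 exons, rrn18 at 126289 to 128223 on the minus strand, and ORF149 at 360315 to 360764 on the plus strand.

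The libraries held 38216649 to 41833843 reads in genes. Mitochondrial genes took 0.00916% to 0.0213% of them, or 3660 to 8574 reads per library. At 22 °C the share was 0.00916% (95% Wilson interval 0.00887% to 0.00946%), 0.00953%, 0.00930% and 0.0213% (0.0208% to 0.0217%) in control libraries 1 to 4. At 30 °C it was 0.0183%, 0.0130%, 0.0133% and 0.0170%. The intervals cover counting error only. The mean was 0.0123% ± 0.00598 (SD, n = 4) at 22 °C and 0.0154% ± 0.00264 (SD, n = 4) at 30 °C, and the ranges overlapped through control library 4 alone. Without that library the control mean was 0.00933% and the ratio of the temperatures rose from 1.25 to 1.65.

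**Figure D1:**
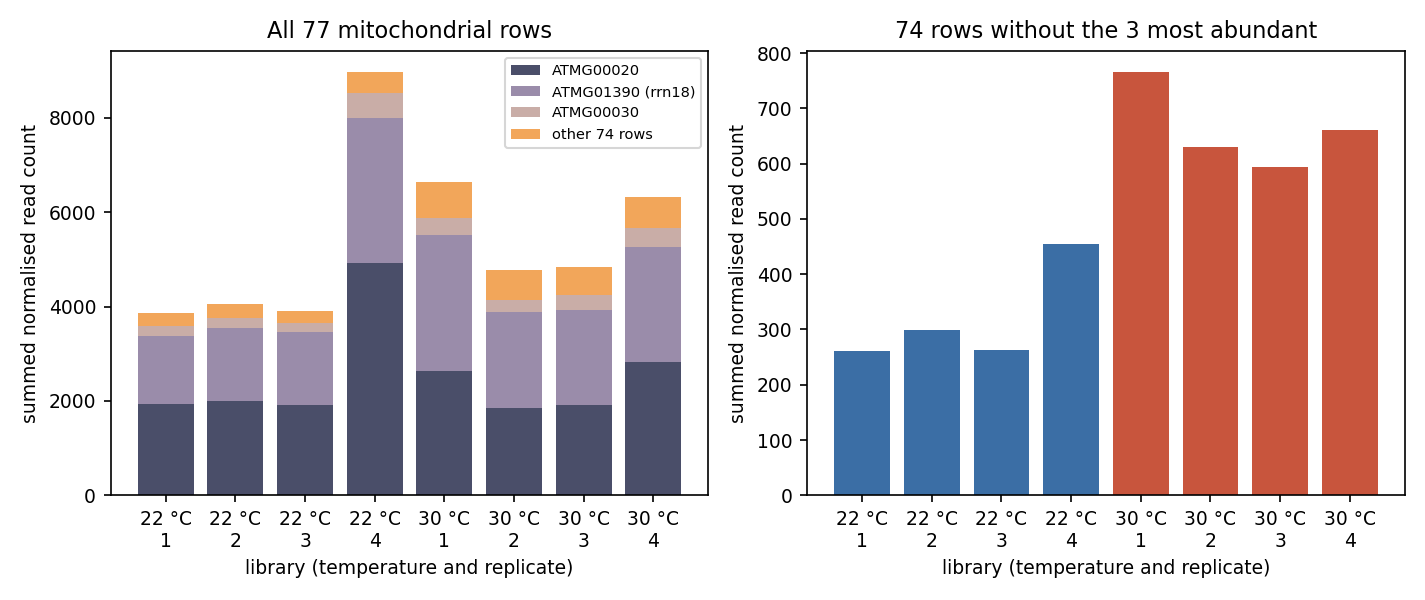
Summed normalised read counts (vertical axes) of mitochondrial genes in each library (horizontal axes, temperature and replicate), for all 77 genes with the 3 most abundant shown separately (left) and for the other 74 (right). Control library 4 stands highest on the left at 8975, whereas on the right all 4 libraries at 30 °C, from 594 to 766, lie above the controls, from 260 to 454.

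Very few genes gave most of these reads in every library. ATMG00020 (2568 bases, unnamed), ATMG01390 (rrn18, the RNA of the small mitochondrial ribosomal subunit) and ATMG00030 (324 bases, unnamed) together made up 92.6% to 94.9% of the mitochondrial reads at 22 °C and 86.8% to 89.6% at 30 °C. Of the 4 open reading frames with the length of ATMG00030, ORF107A (143781 to 144104) overlaps rrn26 (140797 to 143965) on the other strand. Which of the 4 this row stands for is not known, so whether its reads are separate from those of rrn26 was not settled here. Their mean levels were 24.7, 27.7 and 24.4 FPKM (fragments scaled to gene length), a scale on which genes of different length can be set side by side. Between libraries the deposited FPKM values were scaled by the same size factors as the normalised read counts, and not by total reads. Each of the other 74 genes had a mean of 0.00649 to 5.90 FPKM, with 69 under 1 FPKM, beside a median of 7.07 FPKM over all genes tested. The highest of the 74 was ATMG00665 (nad5), whose row is only 22 bases long, so that its FPKM can hardly be compared with the others.

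The 3 abundant genes did not pass the test for temperature. Values are given as normalised read counts, that is, reads divided by a size factor of the library, so that 1 read was worth 0.877 to 1.11. The normalised read count of ATMG00020 was 1945, 2005, 1905 and 4921 in the control libraries and 2637, 1854, 1913 and 2829 at 30 °C. That of ATMG01390 (rrn18) was 1435, 1533, 1562 and 3076 at 22 °C and 2879, 2025, 2018 and 2426 at 30 °C. For ATMG00030 the values were 219, 211, 181 and 523 against 356, 270, 319 and 414. In all 3 genes control library 4 exceeded every other library, and the temperatures overlapped. The log2 fold changes at 30 °C were -0.12 ± 0.24 (SE), 0.36 ± 0.19 and 0.38 ± 0.25 (limma adjusted p = 0.67, 0.096 and 0.18). Without control library 4, rrn18 and ATMG00030 passed both thresholds, with log2 fold changes of 0.62 and 0.72, and ATMG00020 did not, with its log2 fold change turning to 0.22.

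The balance between the 2 most abundant genes shifted with temperature. The ratio of ATMG00020 to ATMG01390 in normalised read counts was 1.36, 1.31, 1.22 and 1.60 in the control libraries and 0.916, 0.916, 0.948 and 1.17 at 30 °C. The ranges did not overlap, and the mean fell from 1.37 ± 0.163 to 0.986 ± 0.121 (SD, n = 4 each; exact two-sided permutation test p = 0.029, the smallest that 70 arrangements allow). This ratio was chosen after the values were seen. Being formed within a library, it does not depend on the scaling between libraries. The ratio of ATMG00030 to ATMG01390 was 0.144 ± 0.0230 and 0.146 ± 0.0218 (exact two-sided permutation test p = 0.83).

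Control library 4 stood apart from the other controls across the mitochondrial genes and not across the transcriptome. Of the 11 mitochondrial genes with a control mean of at least 10, all were higher in library 4 than in the mean of the other 3 controls, by a median of 1.03 on the log2 scale, and 9 had their highest control value there. Across 18583 genes of the same minimum the median lay close to 0, with quartiles at -0.09 and 0.08, and only 0.414% of them exceeded 1 whereas 6 of the 11 did. The medians of the mitochondrial genes in control libraries 1, 2 and 3 were -0.49, -0.27 and -0.43. ATMG01360 (cox1, subunit 1 of cytochrome c oxidase) showed the widest spread, with values of 5.17, 14.4, 9.59 and 41.9. The minimum of 10 was set on a mean that includes library 4, so a gene can enter the 11 through a high value there. This applies to cox1, whose other controls lay around that minimum. The 18583 genes were chosen in the same way.

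**Figure D2:**
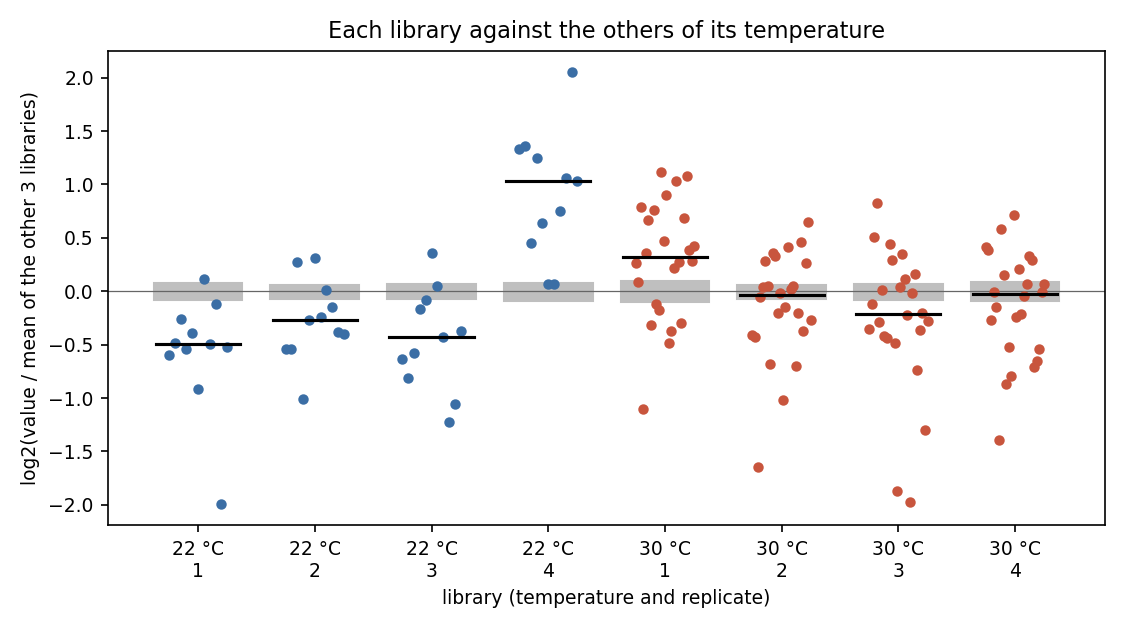
Each point is the log2 ratio of 1 mitochondrial gene in a library to its mean in the other 3 libraries of that temperature (vertical axis), for the 11 genes at 22 °C and the 24 at 30 °C with a mean of at least 10; black lines are medians and grey boxes span the quartiles of all genes with that minimum. Control library 4 has its median at 1.03, outside the grey box.

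The spread of the abundant genes within a temperature was wide for their depth. At 22 °C the coefficient of variation was 55.1% for ATMG00020 and 41.3% for rrn18, beside medians of 3.38% and 3.73% for genes within 1.5 times of their mean. At 30 °C it was 21.5% and 17.5%, beside a median of 3.86% for both. Counting alone would give 1.98% to 2.36% at these depths. By contrast, ATMG00660 (ORF149) varied by 8.05% at 22 °C, under the median of 17.4% for genes of its abundance, and its value in control library 4, 69.1, lay within the other controls.

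Other measures of that library moved in part as well. The sum of the 76 plastid genes was 398 in control library 4 and 290 to 326 in the other controls. The nuclear rRNA row AT3G41768 stood at 51385 against 34087 to 38140, and the rRNA row AT2G01020 at 647 against 483 to 546. The rRNA row AT2G01010 stood at 799 against 748 to 788. The root hair marker COBL9 was lowest there, at 395 against 645 to 938, and so was EXPA7, at 42.9 against 68.6 to 98.0. The summed xylem vessel markers were lowest there too, at 342 against 387 to 449. Sums of root cap and meristem markers were highest there, at 3733 against 3143 to 3458 and at 3412 against 2983 to 3005. Those of Casparian strip and green tissue markers lay within the other controls. Their part in the mitochondrial values was not tested. At 30 °C library 1 had the highest value in 12 of 24 mitochondrial genes, with a median log2 ratio of 0.32, and 17 of the 24 above 0.

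The less abundant genes gained reads at 30 °C. The summed normalised read count of the 74 was 260, 299, 263 and 454 at 22 °C and 766, 631, 594 and 660 at 30 °C. The means were 319 ± 91.8 and 663 ± 73.9 (SD, n = 4), with no overlap of the libraries. A large part of this rise came from ATMG00690, with means of 3.20 and 98.8, and ATMG00160 (cox2), with 6.18 and 62.3. Between 31 and 42 of the 77 genes had at least 1 read in a control library, and between 60 and 64 in a library at 30 °C. In all, 28 genes had 0 reads in every control and 2 had 0 in every library at 30 °C. The 77 are genes that held reads. A further 75 mitochondrial genes had FPKM values only, 68 of them 0 in every library and 7 above 0 in 1 library. A gene with reads at 1 temperature alone could thus enter the 77 through that temperature, and the counts of genes given here depend on that selection. The mean was larger at 30 °C for 66 of the 77 genes and larger at 22 °C for 11.

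Of the 77 genes, 53 reached a mean normalised read count of 1 and were tested, and 24 did not, having 2 to 8 reads each over all 8 libraries. At a limma adjusted p under 0.05 and a log2 fold change of at least 0.58, 24 of the 53 were higher at 30 °C and 1 was lower. Among all 21739 genes tested, 20.0% were higher and 17.5% lower. The filter favours genes that are high in 1 group: 16 of the 53 reached a mean of 1 at 30 °C only, and none at 22 °C only. Among the 37 that reached it at both temperatures, 14 were higher (37.8%) and 1 was lower (2.70%), beside 19.5% and 17.1% of all genes that did so. Among the 20 with a mean of at least 10, 9 were higher and 1 was lower. The median log2 fold change of the 53 was 1.41, and 1.40 with the 10 genes without control reads set to their lower bound, beside 0.01 over all genes tested.

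Complete separation of the temperatures was about as frequent upwards as among all genes. In 20 of the 53 genes every library at 30 °C exceeded every control, which is 37.7% beside 32.8% of all genes tested. In 1 gene every library at 30 °C was below every control, beside 32.7% of all genes tested. Reads were few, and 33 of the 53 genes had means under 10.

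**Figure D3:**
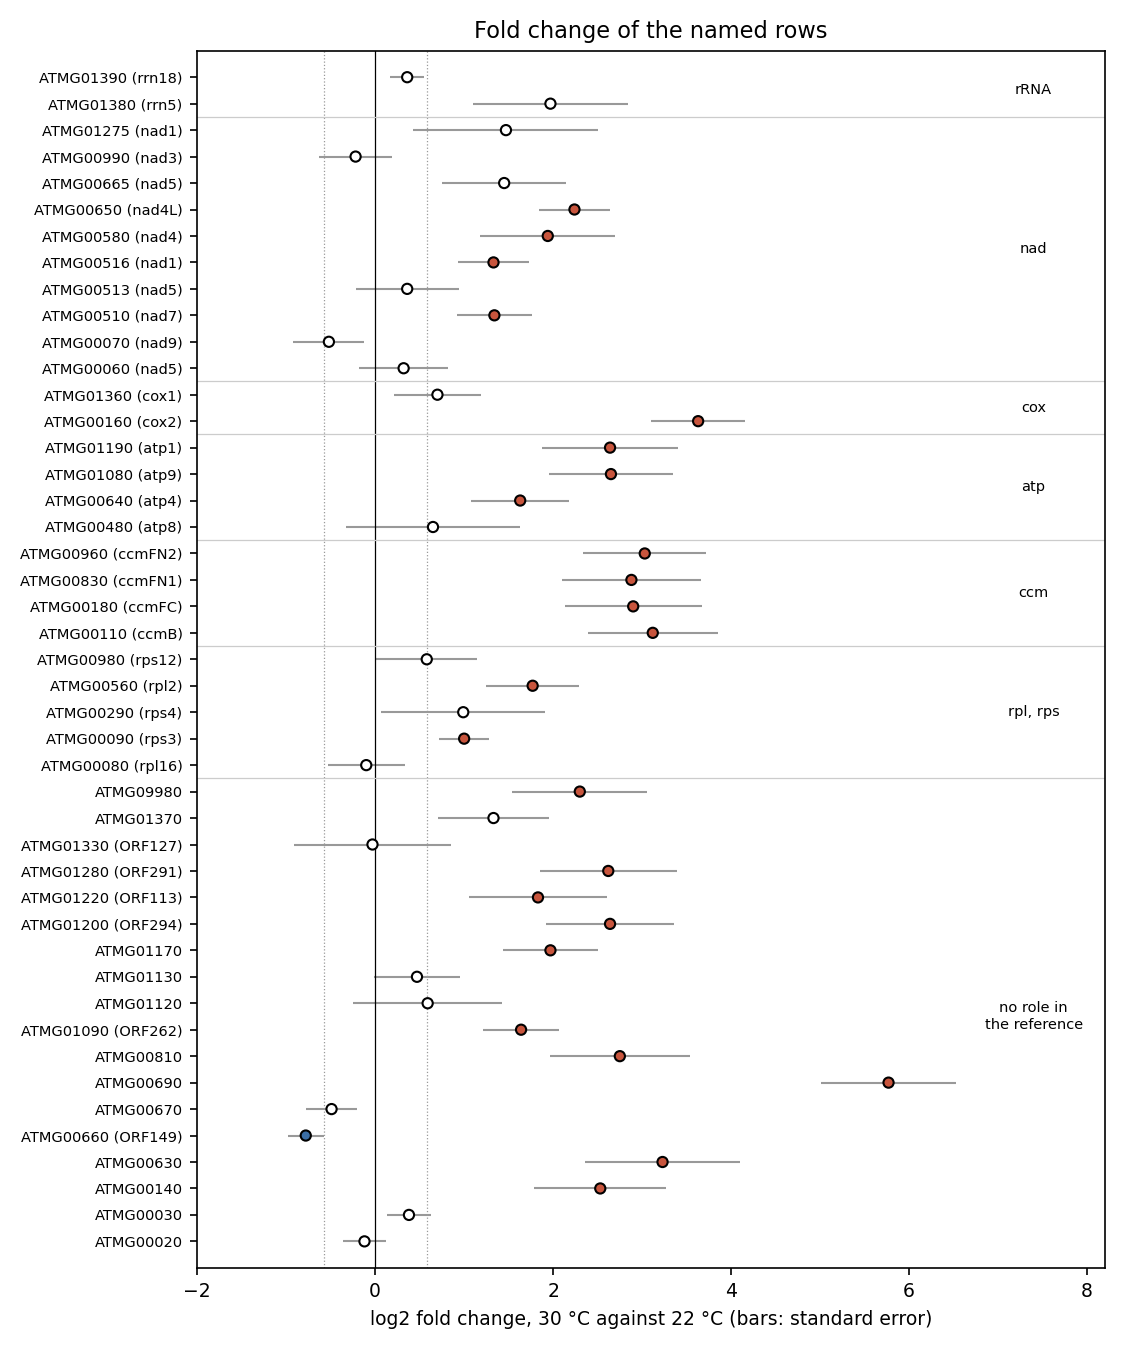
Log2 fold change at 30 °C against 22 °C (horizontal axis, bars standard error of the limma fit, dotted lines at 0.58 either side of 0) for 45 mitochondrial genes grouped by role. Red points passed both thresholds upwards, the blue point (ORF149) downwards, and open points did not pass.

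The largest change was that of ATMG00690 (723 bases). It had 0, 4.42, 0 and 8.37 normalised reads in the controls and 111, 100, 87.7 and 96.8 at 30 °C, so that the mean rose 30.9-fold. The log2 fold change was 5.77 ± 0.76 (SE; limma adjusted p = 5.5e-06; exact two-sided permutation test p = 0.029). Both ORF240A and ORF240B of the reference have this length, and which of them the row stands for is not known. ATMG00810, of the same length, had 0 reads in all controls and 8.44, 1.75, 0.953 and 3.87 normalised reads at 30 °C, at least 4.71-fold higher when the control group is set to a floor of 3 reads.

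Among the subunits of cytochrome c oxidase, the terminal oxidase of the respiratory chain, ATMG00160 (cox2) rose. Its normalised read counts were 7.24, 13.3, 1.07 and 3.14 at 22 °C and 52.5, 64.0, 49.6 and 83.3 at 30 °C. Every library at 30 °C exceeded every control, and the mean rose 10.1-fold from 6.18 ± 5.38 to 62.3 ± 15.3 (SD, n = 4; log2 fold change 3.63 ± 0.53; limma adjusted p = 1.5e-05). ATMG01360 (cox1) had 27.2, 25.4, 20.0 and 16.5 at 30 °C, within the range of its controls given above, and did not pass (log2 fold change 0.70 ± 0.49; limma adjusted p = 0.21). Without control library 4 it passed, with a log2 fold change of 1.24. ATMG00730 (cox3) was not tested, having 4 reads in all, each of them at 30 °C.

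**Figure D4:**
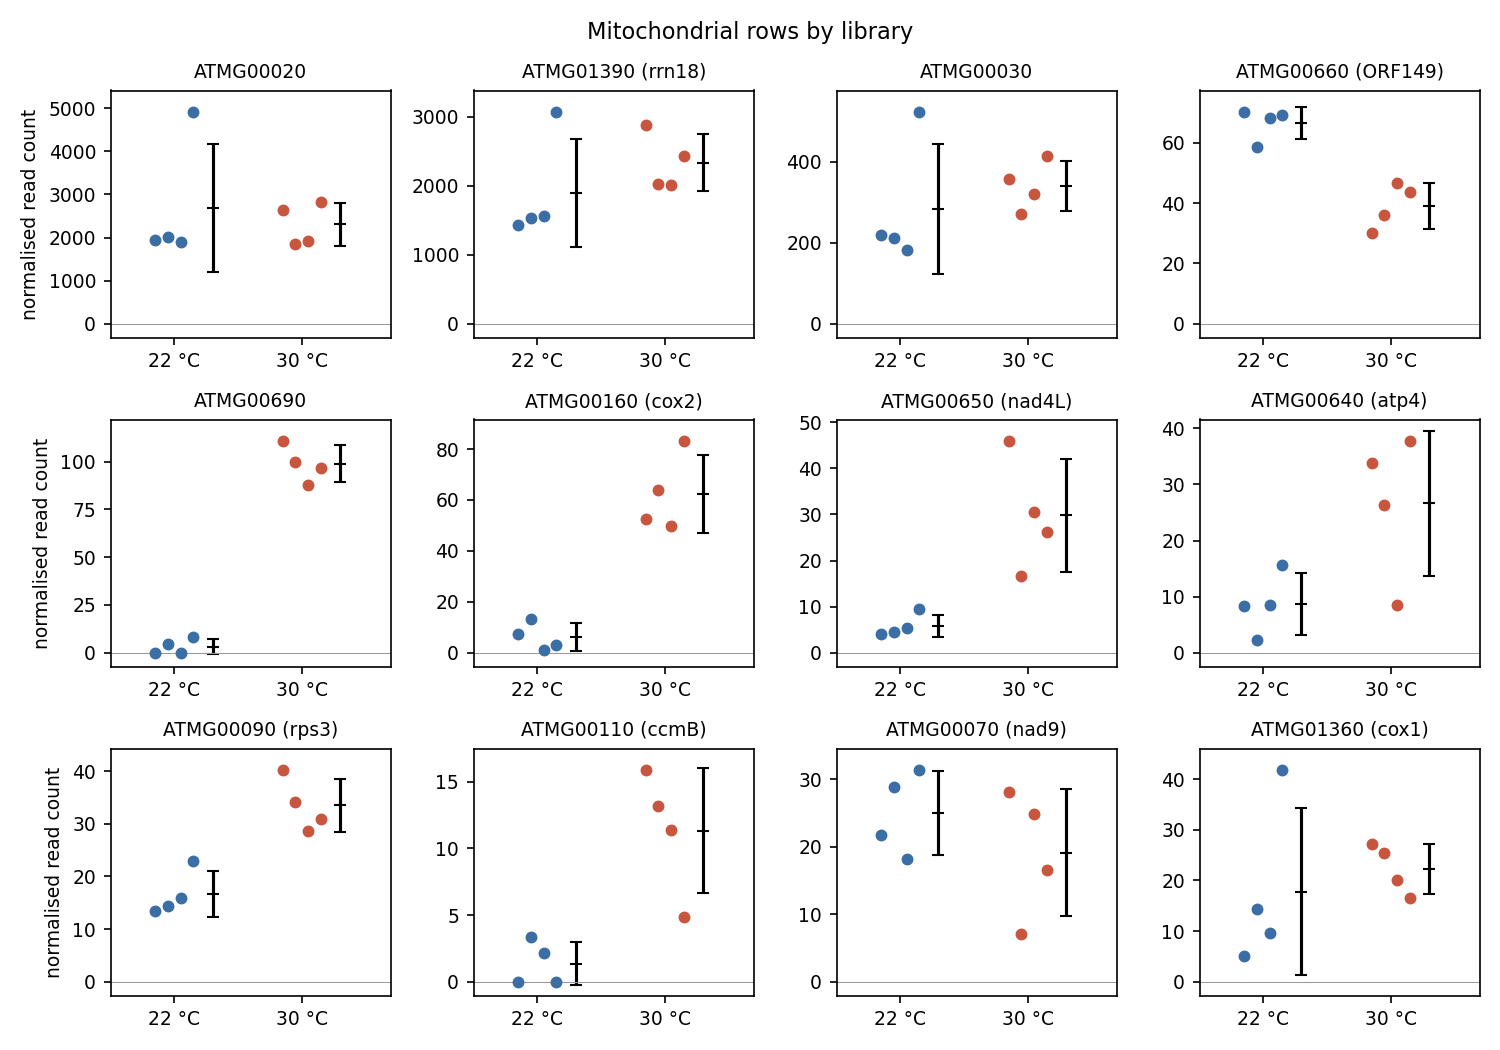
Normalised read counts (vertical axes, a separate scale in each panel) of 12 mitochondrial genes in the 4 libraries at 22 °C (blue) and the 4 at 30 °C (red), with the mean and SD beside them. ATMG00690 and cox2 separate the temperatures widely, from 8.37 to 87.7 and from 13.3 to 49.6, whereas control library 4 sets the spread of the first 3 genes and of cox1.

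The nad genes encode membrane and peripheral subunits of complex I, which oxidises NADH. Of 10 tested rows with such a name, 4 were higher at 30 °C and none was lower, beside 20.0% and 17.5% of all genes tested. ATMG01120 and ATMG00285, nad genes by the role list only, are not among the 10 and did not pass (limma adjusted p = 0.54 and 0.99). ATMG00650 (nad4L), whose length is shared by ORF100A and ORF100B, had 4.13, 4.42, 5.33 and 9.42 normalised reads at 22 °C and 46.0, 16.7, 30.5 and 26.1 at 30 °C (log2 fold change 2.24 ± 0.40; limma adjusted p = 1.1e-04). ATMG00510 (nad7) rose 2.44-fold, with a slight overlap, and ATMG00516 (exons of nad1) rose 2.63-fold with none (limma adjusted p = 0.01 and 0.0078). ATMG00580 (nad4) had 2 reads at 22 °C and 14 at 30 °C, a ratio of 6.15 with a counting interval of 1.41 to 55.7. Its control mean was 0.538, so it was tested through 30 °C alone and could only be called higher. Its call was lost in 5 of the 8 fits that each left out 1 library (control 1 or 3, or library 1, 3 or 4 at 30 °C; limma adjusted p = 0.074 to 0.092). ATMG00070 (nad9) went the other way without passing, from 25.0 ± 6.15 to 19.1 ± 9.43 (SD, n = 4; limma adjusted p = 0.26), and ATMG00990 (nad3) stood at 13.2 ± 6.46 and 10.6 ± 2.54. Neither difference exceeded the spread between libraries. The nad5 rows ATMG00060, ATMG00513 and ATMG00665 and the nad1 row ATMG01275 did not pass either, with log2 fold changes of 0.32, 0.36, 1.45 and 1.47.

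In ATP synthase, 3 of 4 named genes passed upwards, beside 20.0% of all genes tested. ATMG01170, an ATP synthase gene by the role list only, is not among the 4. ATMG00640 (atp4, a stalk subunit of the membrane sector) had 8.27, 2.21, 8.52 and 15.7 normalised reads at 22 °C and 33.8, 26.3, 8.58 and 37.8 at 30 °C, where library 3 lay among the controls (log2 fold change 1.63 ± 0.55; limma adjusted p = 0.015). Its adjusted p rose to 0.053 without control library 2 and to 0.054 without library 4 at 30 °C. ATMG01190 (atp1, the alpha subunit of the catalytic head) had 0 reads at 22 °C and 13 at 30 °C, at least 3.83-fold higher against the same floor. ATMG01080 (atp9, which forms the proton-driven ring) had 1 read against 16, and ATMG00480 (atp8) did not pass (limma adjusted p = 0.57). With control means of 0 and 0.266, atp1 and atp9 reached the tested mean through 30 °C alone. They could only be called higher, so the count of this class depends on that selection.

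All 4 cytochrome c maturation genes, which act in attaching haem to cytochromes, passed upwards, from very low counts, beside 20.0% of all genes tested. ATMG00110 (ccmB) had 0, 3.32, 2.13 and 0 normalised reads at 22 °C and 15.9, 13.2, 11.4 and 4.84 at 30 °C, an 8.33-fold rise (limma adjusted p = 0.0013). ATMG00830 (ccmFN1) rose 7.60-fold from 5 reads to 44, with an overlap of the libraries (limma adjusted p = 0.0037). ATMG00960 (ccmFN2) and ATMG00180 (ccmFC) had 0 control reads and 16 and 17 reads at 30 °C, at least 4.67-fold and 5.04-fold higher. Both reached the tested mean through 30 °C alone and could only be called higher, so the count of this class depends on that selection.

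Genes for proteins of the mitochondrial ribosome were divided. ATMG00090 (rps3) rose from 16.7 ± 4.34 to 33.5 ± 5.09 (SD, n = 4; 2.01-fold; limma adjusted p = 0.0042), with all libraries at 30 °C from 28.6 to 40.3 above the controls from 13.4 to 23.0. ATMG00560 (rpl2) rose 3.48-fold (limma adjusted p = 0.007). ATMG00080 (rpl16) stood at 14.0 ± 7.70 and 12.6 ± 5.11, and ATMG00980 (rps12) and ATMG00290 (rps4) also did not pass (limma adjusted p = 0.85, 0.37 and 0.35). ATMG01380 (rrn5, the 5S ribosomal RNA) had 0, 1.11, 0 and 9.42 normalised reads at 22 °C and 8.44, 2.63, 4.76 and 5.81 at 30 °C. Control library 4 lay above all others, and the gene did not pass with it (limma adjusted p = 0.054) and passed without it (0.0027).

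ATMG00660 (ORF149) was the single gene that fell. Its normalised read counts were 70.3, 58.6, 68.2 and 69.1 at 22 °C and 30.0, 36.0, 46.7 and 43.6 at 30 °C, so that no library overlapped. The mean decreased from 66.5 ± 5.36 to 39.1 ± 7.52 (SD, n = 4), which is -0.78 ± 0.20 as log2 fold change (SE; limma adjusted p = 0.0029; exact two-sided permutation test p = 0.029). With reads scaled to equal totals, under which the median of all genes was 0.22, the value was -0.58 and the gene no longer passed the fold threshold. ATMG00670 (828 bases, unnamed) had 29.7 ± 9.35 and 20.7 ± 3.82 and did not pass (limma adjusted p = 0.14).

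The remaining genes without a role in the reference that passed upwards were ATMG01090 (ORF262), ATMG01170, ATMG01200 (ORF294), ATMG01220 (ORF113), ATMG01280 (ORF291), ATMG00140, ATMG00630 and ATMG09980. ATMG01170 is atp6 in the role list only, and ATMG09980 has 74 bases, the length of several tRNA genes. ATMG01170 rose 3.76-fold and ATMG01200 4.79-fold, each without overlap (limma adjusted p = 0.0038 and 0.0039). ATMG00630 had 0 control reads and 23.5, 5.26, 1.91 and 0.968 normalised reads at 30 °C, of which library 1 gave most. ATMG01220 lost its call in 7 of the 8 fits that left out 1 library, all but the one without control library 2 (limma adjusted p = 0.053 to 0.12 in the 7). ATMG01370, with a log2 fold change of 1.33, did not pass (limma adjusted p = 0.065) but did so without control library 2 (0.018) or library 3 at 30 °C (0.035).

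The nucleus of Col-0 carries a large copy of mitochondrial DNA on chromosome 2, and genes inside it share their sequence with nuclear loci. In TAIR10.1, alignments of at least 100 bases and 99% identity between chromosome 2 and the mitochondrial chromosome covered 72.7% of the latter, with a mean identity of 99.91%, in the region chr2:3239038-3509765. How reads with several matches were counted is not given in the sources used here, and its part in the values was not tested.

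Levels were set beside that match, as a description. Of 28 genes with a role and a length above 100 bases, 11 had a nuclear match over less than 50% of their bases and 17 over 50% or more. The 11 had a median of 0.379 FPKM at 22 °C (range 0.0555 to 24.9) and 0.844 at 30 °C. The 17 had a median of 0.0245 FPKM at 22 °C (range 0 to 0.931) and 0.154 at 30 °C, and 6 of them had 0 reads in all controls, against none of the 11. Both groups held genes that rose: 5 of 11 tested in the first, cox2, nad4L, atp4, ccmB and rps3, and 9 of 15 tested in the second. In the second, ccmFC, ccmFN2, atp1, atp9 and nad4 reached the tested mean through 30 °C alone and could only be called higher. None of the 5 in the first did so, and the counts of the groups can therefore not be compared. Among all genes tested, 20.0% were higher.

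**Figure D5:**
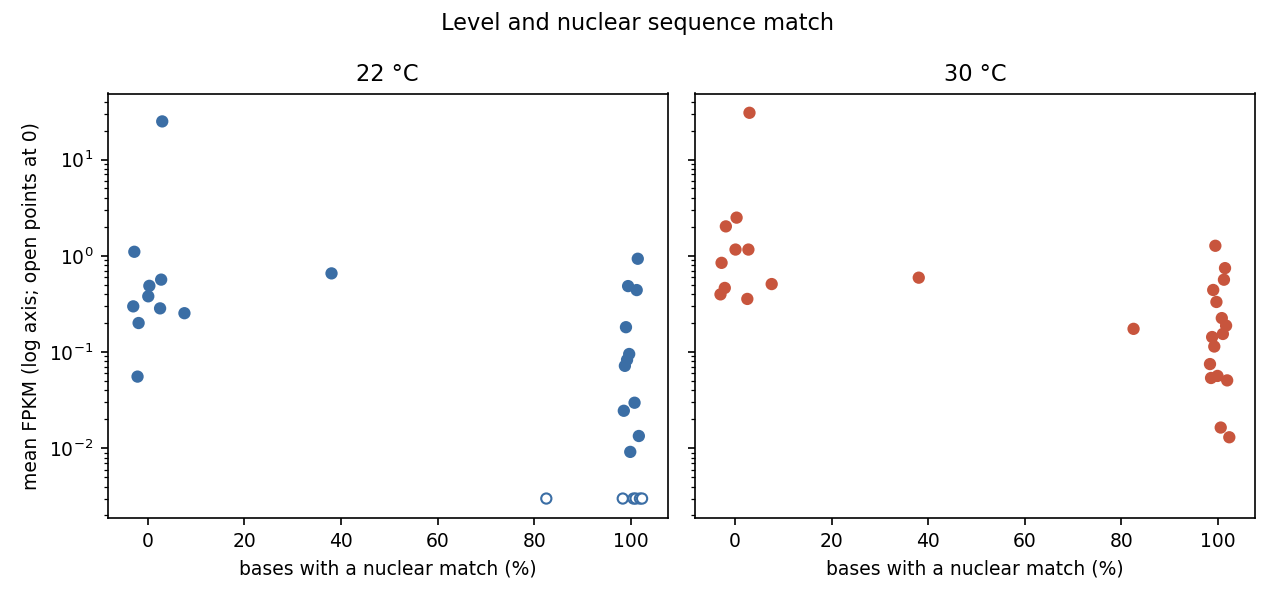
Mean FPKM (vertical axes, log scale, open points at 0) against the percentage of a gene's bases with a nuclear match (horizontal axes, points shifted sideways by up to 3 for visibility) for 28 mitochondrial genes with a role, at 22 °C (left) and 30 °C (right). Genes matched over 50% or more lie lower, with a median of 0.0245 FPKM at 22 °C beside 0.379.

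The table lists reads for nuclear copies too. Of 27 nuclear genes that RefSeq notes as copies of ATMG genes and that were in the table, 16 were tested. Of these, 8 were higher at 30 °C and none was lower, beside 20.0% and 17.5% of all genes tested. However, AT2G07725, AT2G07722, AT2G07667 and AT2G07695 had control means of 0, and AT2G07739 and AT2G07798 of 0.520 and 0.543. They reached the tested mean through 30 °C alone and could only be called higher, so the count depends on that selection. AT2G07698, the copy of atp1, had 11.4, 5.53, 6.39 and 19.9 normalised reads at 22 °C and 64.7, 48.2, 40.0 and 46.5 at 30 °C (log2 fold change 2.31 ± 0.37; limma adjusted p = 4.3e-05) with no overlap. AT2G07715, the copy of rpl2, stood at 71.3 ± 5.95 and 74.9 ± 10.4 and did not pass (limma adjusted p = 0.74). When each gene was summed with its copy, the mean at 30 °C was 4.90 times that at 22 °C for atp1, without overlap, and 1.18 times for rpl2, with overlap. Over the 14 sums, an exact two-sided permutation test gave p = 0.029, the smallest it allows, for atp1, atp9, ccmFN2, ORF291 and ORF313. After Benjamini-Hochberg adjustment of that test p was 0.08, so that no sum passed. However, no single sum could have passed this adjustment on its own, so the test does not decide whether a given sum changed. How the counting divided reads between a gene and its copy is not known, so the separate values of such pairs are uncertain.

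The plastid genome, which also gives transcripts without stable poly(A) tails, was measured beside these genes. Of 76 plastid genes, 51 were tested, 3 were higher at 30 °C and 5 were lower, fewer in both directions than the 20.0% and 17.5% of all genes. Their summed normalised read count was 332 ± 46.4 at 22 °C and 264 ± 28.8 at 30 °C (SD, n = 4), while the median log2 fold change was 0.26, of opposite sign.

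Nuclear genes for subunits of the same complexes were mostly below the fold threshold. Of 49 genes for complexes I to IV, cytochrome c and ATP synthase, 9 were lower at 30 °C, 2 were higher and 38 did not pass, with a median log2 fold change of -0.36 beside 0.01 over all genes tested. The share of lower genes was close to the 17.5% of all genes, and that of higher genes was below the 20.0%. FRO1 (complex I) fell from 10797 ± 85.4 to 6051 ± 234, and COX6B (cytochrome c oxidase) from 11668 ± 139 to 6959 ± 255 (SD, n = 4; limma adjusted p = 5.6e-12 and 1.7e-11). The largest rise was that of AT5G25450, annotated as a ubiquinol oxidase subunit, from 7.47 ± 1.73 to 918 ± 143. CYTC-2, one of the cytochrome c genes, rose from 4837 ± 96.5 to 8860 ± 316.

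Nuclear factors that transcribe and process mitochondrial RNA were counted in the same way. Of 10 tested genes for transcription, termination and RNA decay, 2 were higher and none was lower, a share of higher genes equal to the 20.0% of all genes tested. The 2 were AT5G15700, a phage-type RNA polymerase, with a log2 fold change of 0.68 ± 0.04 and SHOT1, a member of the mitochondrial termination factor family, with 0.73 ± 0.09. AT5G14580, a polyribonucleotide nucleotidyltransferase, the kind of enzyme that degrades polyadenylated RNA, was named after its values were seen. It stood at 3185 ± 191 and 3527 ± 42.9, a change below the fold threshold. Other genes of the list that act in tailing or decay, also named after their values were seen, moved without passing that threshold. AT2G17580, a polynucleotide adenylyltransferase, fell from 1875 ± 76.6 to 1399 ± 69.2 (limma adjusted p = 6.0e-07). The ribonuclease RNR1 rose from 669 ± 33.1 to 997 ± 44.5 (limma adjusted p = 1.3e-07), and AHG2 from 1063 ± 49.3 to 1250 ± 80.2. Of 16 splicing and editing factors, 5 were higher and 1 was lower, beside 20.0% and 17.5% of all genes tested. OTP43 and the maturase AT5G46920 had log2 fold changes of 1.01 ± 0.18 and 0.83 ± 0.05, MORF1, an editing factor, had 0.72 ± 0.04, and the maturase AT1G74350 fell by 0.67 on the log2 scale. None of the 8 tested genes for mitochondrial ribosomal proteins and translation factors passed with both thresholds.

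Of 7 genes for cytochrome c maturation and assembly factors, 2 were higher and none was lower, beside 20.0% and 17.5% of all genes tested. HCC2, related to the copper chaperones of cytochrome c oxidase, rose from 186 ± 30.2 to 1759 ± 39.8, and COX15, which acts in haem A synthesis, from 2422 ± 123 to 5976 ± 136 (SD, n = 4; limma adjusted p = 1.4e-13 and 3.1e-13). Of 12 genes for carriers, porins, matrix enzymes and organelle division, 4 were higher and 3 were lower, in lists too short to set apart from those shares. The porin AT1G50400 rose from 172 ± 23.5 to 2026 ± 114. Of the ADP/ATP carriers of the inner membrane, AAC1 fell from 163855 ± 5697 to 86350 ± 2379, whereas AAC2 rose from 5466 ± 92.8 to 11433 ± 116 and AAC3 from 176 ± 23.3 to 1823 ± 272.

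Cell type markers were measured beside these values. Both root hair markers fell, to 0 in 2 of the 4 libraries at 30 °C for COBL9 and in 3 for EXPA7, with COBL9 at 674 ± 224 and 6.95 ± 8.45 and EXPA7 at 76.4 ± 26.1 and 2.62 ± 5.24 (SD, n = 4). The 3 root cap markers (SMB, BRN1, BRN2) had log2 fold changes of 0.32 to 0.36, below the fold threshold. PLT1, a meristem marker, rose from 1234 ± 118 to 2307 ± 102 and CYCB1;1 fell from 992 ± 58.7 to 431 ± 40.5. The summed Casparian strip markers were 15.8 to 219 at 30 °C, with library 3 highest, and 33.1 to 51.1 at 22 °C. The 3 green tissue markers fell, from a sum of 168 to 15.4. The part of these differences in cell types in the mitochondrial values was not tested.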

How the data were processed

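Poly(A) RNA of root tips was sequenced from directional libraries, 4 per temperature as the labels give them (the methods of the study state 3). Per the labels, the authors used HISAT2, the TAIR10 genome and DESeq2. The counting program is not given in the sources used here, nor are its settings for strand and for reads with several matches. The authors deposited a normalised signal per gene (read counts divided by DESeq2 size factors) and FPKM values. Whole reads were recovered from the normalised values, of which 100.0% were whole within 0.01 read.

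The test was limma 3.58.1 (R 4.3.3) with an intensity trend on log2(normalised value + 0.5), over the 21739 genes with a mean of at least 1, with Benjamini-Hochberg adjustment over all of them. Fold changes are on that scale, so those of low genes depend on the pseudocount and can differ in either direction from the ratio of the means. A gene passed at an adjusted p under 0.05 and a log2 fold change of at least 0.58 in either direction. Single values were compared with exact two-sided permutation tests (scipy 1.17.1). Nuclear matches were found with blastn 2.17.0. Alternatives were edgeR 4.0.16, DESeq2 1.42.0, other pseudocounts, filters and scalings, a replicate block and leaving out each library. The limma script was tested on simulated data.

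Mitochondrial genes with a role that were tested were named with values, as were the 10 others with the highest FPKM and those past both thresholds, up to 10 a direction. In each nuclear list up to 4 genes past both thresholds were eligible. The genes and lists were chosen with earlier results of these data known. Of 125 listed nuclear genes, 5 whose reference name did not match were dropped.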

Additional observations from a re-analysis of the deposited data

Results flagged for a closer look

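Values were looked at again where the highest or lowest of the 4 libraries of a temperature stood apart from the other 3 by Dixon's criterion. This held in 12 of 98 groups. Chance gives about 1 in 20 for normally distributed values. Some of the groups hold small counts with ties at 0, for which that rate does not hold, so the 12 cannot be read against it. In 6 of the 12 the library was control 4, with 4921 normalised reads of ATMG00020, 3076 of ATMG01390 (rrn18), 523 of ATMG00030, 16.7 of ATMG00510 (nad7) and 9.42 of ATMG01380 (rrn5), and with 0.0213% of its reads in mitochondrial genes. These values are not independent, since 3 of the genes make up most of the share. The cause was not tested.

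The other 6 rested on small counts or on 1 ratio. At 22 °C, ATMG00665 (nad5) was at 0 in control library 1 and at 4.19 to 4.42 in the others, and ATMG01080 (atp9) was at 1.07, a single read, in control library 3 and at 0 in the others. At 30 °C, library 1 had 23.5 normalised reads of ATMG01200 (ORF294), library 2 had 9.65 of ATMG01275 (nad1) beside 0 to 0.968 in the others, and library 4 had 4.84 of ATMG00140. The ratio of ATMG00020 to ATMG01390 was 1.17 in library 4 at 30 °C and 0.916 to 0.948 in the others.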

How the results depend on the processing

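None of the 25 genes that passed changed direction, but 7 named genes that did not pass did so. With equal totals the log2 fold change of ATMG00020 turned from -0.12 to 0.09, that of ATMG00080 (rpl16) from -0.10 to 0.10 and that of ATMG01330 (ORF127) from -0.03 to 0.13, the last also to 0.42 with a pseudocount of 0.1. ATMG01120 turned from 0.59 to -0.03 with edgeR and -0.04 with DESeq2. When 1 library was left out, the log2 fold changes spanned -0.24 to 0.22 for ATMG00020, -0.33 to 0.22 for ATMG00080, -0.05 to 1.30 for ATMG00480 (atp8), -0.03 to 0.84 for ATMG00980 (rps12), -0.51 to 0.06 for ATMG00990 (nad3), -0.35 to 1.26 for ATMG01120 and -1.08 to 0.35 for ATMG01330. The count of mitochondrial genes higher at 30 °C fell from 24 to 9 with a minimum mean of 10, which left 20 genes to test. The count of lower genes went from 1 to 0 with reads scaled to equal totals, where the median of all genes stood at 0.216 on the log2 scale, and to 2 with quantile normalisation, where ATMG00670 (-0.72) joined ORF149. Equal totals gave 29 higher genes, beside 27.5% of all genes higher and 11.9% lower. The count test of edgeR on the recovered reads gave 24 higher genes and 1 lower. The other settings gave 21 (DESeq2) to 27 (no filter) higher genes and 1 lower. Leaving out 1 library gave 18 to 28 higher genes and 1 lower. Of the 25 genes that passed, 22 did so without each library in turn wherever they were still tested, and 20 under every alternative that tested them. The exceptions were nad4, ORF113, atp4, ATMG09980 (DESeq2 adjusted p = 0.074) and ORF149. The difference in the share of reads, 0.00309 percentage points, ranged from 0.00204 to 0.00608 when 1 library was left out, the latter without control library 4, and was 0.00709 in summed FPKM. It was 0.00121 without rrn18 and rrn5, and 0.00130 without ATMG00020 as well, a setting chosen after seeing the data. Same-numbered libraries did not visibly deviate together (correlations of 0.01, 0.02, -0.00 and -0.01). Among genes with a mean of at least 10 the correlations were 0.01, 0.01, 0.08 and 0.00, beside -0.09 to 0.05 for libraries of different number. Whether the numbers pair the samples cannot be decided from such small values. With a replicate block, 22 genes were higher and 1 was lower, and nad4 and ORF113 did not pass. Depth limits most of these genes: 33 of the 53 tested had a mean under 10.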
